A study of Oryctolagus cuniculus with 20 samples.

Results

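Pieces of rabbit common carotid artery that had been moved into a vein 30 days earlier were compared with the carotid artery of the opposite side, which had been left unoperated. The comparison takes 8 of the study's 20 RNA libraries, 4 of grafts and 4 of opposite arteries. It covers 8657 of the 23669 genes in the deposited table, those with at least 1 FPKM in 4 or more of the 20 libraries. FPKM counts fragments relative to transcript length and library depth, so that levels can be set side by side between genes. The other libraries came from grafts and opposite arteries of day 14 and from unoperated external jugular vein, 4 in each group. Grafts and opposite arteries were told apart by the sample titles, because the treatment label reads transplantation in all 5 groups, the unoperated arteries and veins included. Each sample also carries the cell line name HASMC, although tissue and organism are given as rabbit vessel. No strain, age or animal number is given. The labels do not say whether the 4 libraries of a group came from separate animals, and the p-values cover the spread among these samples, which may be technical.

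A muscular artery is a tube of smooth muscle cells wrapped in elastic and collagen fibres, lined by endothelium and surrounded by an adventitia of fibroblasts, small vessels and nerves. Smooth muscle cells contract through actin and smooth muscle myosin under the control of calcium, and they can lose this contractile equipment when a vessel is injured, divide, migrate and make matrix instead. Vessels placed in another position are known to be entered by macrophages and lymphocytes and to rebuild their wall with the help of matrix-cutting enzymes.

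The 8 libraries were not all alike. The files give no read counts, so depth per library is unknown. Sums of FPKM were 327806 to 379746 in the opposite arteries and 372809 to 465676 in the grafts, and 6828 to 7096 against 7578 to 7740 genes reached 1 FPKM. Opposite arteries 2 and 3 stood apart from 1 and 4 in 49 genes that were at least 5-fold higher in both, while 5 genes were at least 5-fold lower. In the 33 of the 49 with a symbol, opposite artery 2 lay below 3 and above 1 and 4. IL6 was at 225 FPKM in opposite artery 3, 111 in 2, 1.08 in 1 and 0.13 in 4. Whether opposite arteries 2 and 3 are independent in these genes was not tested. Those 49 included IL6, CXCL8, SELE, VCAM1, ICAM1, CCL2, IRF1, TNFAIP3 and several genes of the mitochondrial genome, and 13 of them passed the test between grafts and opposite arteries. Over genes averaging at least 10 FPKM, opposite artery 2 lay inside the range of the other 3 in 75.5% of genes and graft 4 in 79.9%. For the other libraries of their groups it was 33.1% to 52.8% and 37.9% to 41.9%. These 2 libraries thus resembled mixtures of the others of their group, and whether they are independent samples was not tested. If they are not, SE and adjusted p are too small. A library that lies between the others cannot make the groups overlap, so no overlap then rests on the other 3. A value of 0 was listed for 1445 genes in 1 or more of the 8 libraries, and 159 of these reached 20 FPKM in another.

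Grafts and opposite arteries differed widely at day 30. Of the 8657 genes tested with limma on log2(FPKM + 1), 3253 (37.6%) passed an adjusted p of 0.05, of which 2253 (26.0% of those tested) were higher and 1000 (11.6%) lower in the grafts. In 2983 genes (34.5%) the 4 grafts and the 4 opposite arteries did not overlap. Most of the genes that passed in the lists of contraction, striated muscle, chaperones and nerve sheath were lower, and most of those that passed in the lists of macrophages, lymphocytes, antigen presentation, endothelium, collagens, matrix metalloproteinases and cell division were higher. Leaving out opposite arteries 2 and 3, a setting added after the data were seen, gave 2716 genes, and leaving out opposite artery 2 and graft 4 gave 2544, of which 2467 and 2502 were among the 3253. A change on the log2(FPKM + 1) scale understates that of genes near 1 FPKM. Genes under 1 FPKM in all opposite arteries of day 30 could enter the test only through other libraries. For lists with many such genes the filter itself favours a count of higher members.

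The deposited values set the zero point of these changes. Over all 8657 genes the median log2 change was 0.18, and it was 0.03, -0.02 and -0.06 after median-of-ratios scaling, scaling to TPM and quantile normalization. With these the share of higher genes among those that passed went from 69.3% to 53.5%, 49.8% and 46.7%, with 1693, 1274 and 1482 higher and 1474, 1283 and 1690 lower. Counts for each gene group below are therefore followed by their range over these 3 other scalings. They are to be read against the 26.0% higher and 11.6% lower over all genes tested. Changes of that size carry no firm direction here.

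**Figure D1:**
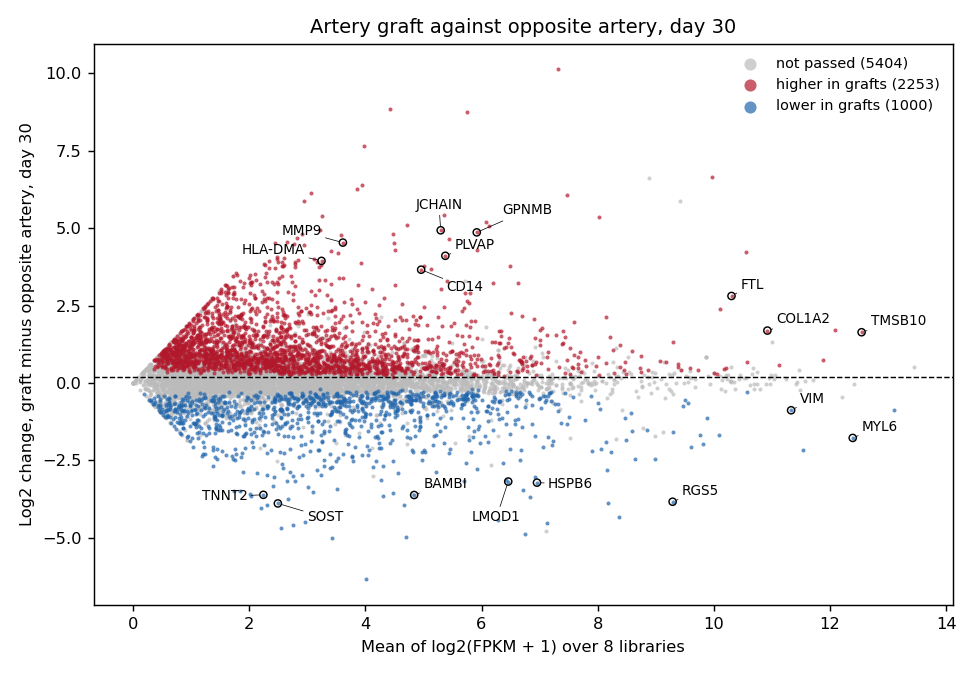
Log2 change between the 4 grafts and the 4 opposite arteries of day 30 (vertical axis) against the mean of the log2(FPKM + 1) values of the 8 libraries (horizontal axis), 1 point per gene. Coloured points are the 2253 genes that were higher and the 1000 that were lower at an adjusted p under 0.05, the gene names mark some of those described in the text, and the dashed line is the median of all genes, 0.18.

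Markers of cell types moved with the groups. The summed FPKM of 5 smooth muscle markers was 6025 to 8654 in the opposite arteries and 1343 to 1765 in the grafts, all 5 being lower. Sums of 6 endothelial markers went from a range of 43.1 to 140 up to 357 to 406, with 4 members higher. PECAM1 was at 0 in all opposite arteries and at 0, 0, 0 and 0.72 FPKM in the grafts. TEK overlapped, at 3.6 to 7.33 and 5.57 to 7.79 FPKM. Sums of 7 macrophage markers went from 15.2 to 33.2 up to 176 to 376, with 4 members higher and CD68 at 0 in all opposite arteries. Most of the graft sums came from CD68, CD14 and C1QC. C1QA and C1QB stayed at 0 to 0.34 FPKM in all 8 libraries, and CD163 overlapped, at 0 to 1.36 and 0 to 3.35 FPKM. Those of 4 T cell markers went from 0.09 to 2.39 up to 5.49 to 19.1, with 3 higher, and those of 4 B and plasma cell markers from 1.37 to 14.1 up to 83.4 to 436, with 2 higher. Fibroblast markers overlapped (804 to 1771 and 1062 to 1218, 1 of 5 higher). So did 4 markers of neutrophils and mast cells (11.6 to 1008 and 89.4 to 208, 1 higher), MPO being at 0 in all opposite arteries and at 0 to 0.06 FPKM in the grafts. The 3 vein markers also overlapped in sum (7.43 to 13.8 and 8.05 to 16.1), with 1 higher and 1 lower. The 6 Schwann cell and nerve markers fell from 22.7 to 77.9 to 1.75 to 10.1, with 4 lower. CDH19 was at 0 in all opposite arteries and at 0 to 0.02 FPKM in the grafts. In bulk tissue fewer cells of a type and less RNA per cell cannot be told apart, and the part of these shifts in the results that follow was not tested.

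Contractile genes were lower in the grafts. Of 28 tested genes of actin, smooth muscle myosin and the thin filament, 20 were lower and 4 higher (20 to 21 lower and 2 to 4 higher under the other scalings), and their median log2 change was -1.89. MYL6, the essential light chain shared by muscle and non-muscle myosin, stood at 12561, 8958, 7992 and 10849 FPKM in the opposite arteries and 3157, 2756, 2782 and 2906 FPKM in the grafts. It lost more FPKM than any other gene that passed without overlap, and each graft lay below each opposite artery (log2 change -1.78 with SE 0.19, adjusted p = 8.8e-07). CSRP1, a LIM protein of the actin cytoskeleton, stood at 1377, 1119.6, 898 and 1399 FPKM in the opposite arteries and 265, 192, 215 and 193 FPKM in the grafts, with all grafts lower (log2 change -2.46 with SE 0.18, adjusted p = 1.7e-08). Levels of LMOD1, leiomodin, which nucleates actin filaments in smooth muscle, were 273, 252, 220.2 and 325 FPKM in the opposite arteries and 33.4, 19.4, 33.3 and 28.9 FPKM in the grafts. Its log2 change of -3.19 was the most negative of the list. PPP1R14A, the inhibitor of myosin phosphatase that sensitizes filaments to calcium, was at 1019.5, 859, 816 and 1038 FPKM in the opposite arteries and 246, 149.5, 126 and 179 FPKM in the grafts (log2 change -2.45 with SE 0.26, adjusted p = 1.2e-06). PPP1R12A, the targeting subunit of the same phosphatase, was at 24.2–30.8 FPKM in the opposite arteries and 2.94–9.16 FPKM in the grafts, so inhibitor and target fell together.

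Transcription factors of the contractile programme fell by unequal amounts. MYOCD, myocardin, the coactivator that turns on smooth muscle genes, was at 2.87, 5.77, 8.22 and 7.66 FPKM in the opposite arteries and 0.30, 0.33, 0.48 and 0.30 FPKM in the grafts. The grafts were all under 1 FPKM and did not overlap with the opposite arteries (log2 change -2.32 with SE 0.21, adjusted p = 1.8e-07). SRF, the DNA-binding partner of myocardin, was at 50.7, 51.7, 55.2 and 55.6 FPKM in the opposite arteries and 41.4, 24.9, 35.5 and 33.4 FPKM in the grafts, a fall of smaller size (log2 change -0.66 with SE 0.15, adjusted p = 0.0014). Proteins that tie actin to focal adhesions were also lower: vinculin (VCL) went from 19.2–39.4 FPKM to 1.33–3.74 FPKM, zyxin (ZYX) from 162–177 to 51.8–71.8, testin (TES) from 119–145 to 18.1–23.5, and kindlin-2 (FERMT2) from 158–210.2 to 64.4–81.1. Their log2 changes were -2.97, -1.42, -2.59 and -1.34, with adjusted p between 1e-08 and 0.00047. The members that rose were TPM4, TPM1, ACTN1 and CALD1. TPM4, a tropomyosin of non-muscle cells, went from 8.21–14.9 to 23.1–45.6 FPKM (log2 change 1.38 with SE 0.24, adjusted p = 0.00018), and CALD1, caldesmon, was at 0.42 FPKM in opposite artery 4 against 40.4 to 82.3 FPKM in the other 3 (log2 change 2.59 with SE 0.80, adjusted p = 0.017).

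Of 19 tested genes that link the muscle cell to its basement membrane or shape its caveolae, 4 were lower and 3 higher (4 to 8 and 2 to 3 under the other scalings), near the 37.6% called over all genes. SGCD, delta-sarcoglycan, went from 12.2–29.5 to 2.00–7.53 FPKM and CAVIN1, which builds caveolae, from 849–949 to 536–662 FPKM. CAV1, caveolin itself, overlapped at 198–222 and 203–216 FPKM and did not pass. Laminin beta 1 (LAMB1) was higher, at 5.92–9.28 and 15.2–21.7 FPKM (log2 change 1.21 with SE 0.25, adjusted p = 0.001), as was utrophin (UTRN), at 10.1–16.5 and 19.0–22.5 FPKM.

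Of 18 tested genes of the sarcoplasmic reticulum, ion pumps and store-operated entry, 7 were lower and 3 higher (8 to 9 and 1 to 3 under the other scalings), against 11.6% and 26.0% of all genes. ATP2A2, the pump that fills the store, was at 97.9, 143, 163 and 141 FPKM in the opposite arteries and 51.2, 55.4, 52.7 and 53.2 FPKM in the grafts. No graft reached the lowest opposite artery (log2 change -1.32 with SE 0.14, adjusted p = 1.3e-06). JPH2, junctophilin 2, which holds the store against the cell membrane, was at 61.0, 73.4, 70.3 and 94.9 FPKM in the opposite arteries and 16.2, 11.7, 10.4 and 11.3 FPKM in the grafts, again without overlap (log2 change -2.50 with SE 0.24, adjusted p = 2.2e-07). ORAI1, the channel through which calcium enters when the store is empty, was higher, at 4.15, 4.09, 2.49 and 2.97 FPKM in the opposite arteries and 10.8, 11.7, 10.6 and 11.5 FPKM in the grafts (log2 change 1.47 with SE 0.16, adjusted p = 9.6e-07).

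Of 19 tested ion channels, 7 were lower and 5 higher (8 to 9 and 4 to 5 under the other scalings), against 11.6% and 26.0% of all genes. KCNMA1, the pore of the large-conductance potassium channel that relaxes arteries, stood at 34.9, 51.8, 53.7 and 58.2 FPKM in the opposite arteries and 11.5, 7.99, 2.91 and 7.31 FPKM in the grafts (log2 change -2.68 with SE 0.27, adjusted p = 4.6e-07). The background potassium channel KCNK3 went from 8.80–15.6 to 0.84–2.92 FPKM and the voltage-gated KCNA5 from 39.0–54.4 to 9.89–18.3 FPKM. P2RX1, the ATP-gated channel of sympathetic transmission, went from 70.2–115 to 15.3–31.9 FPKM (log2 change -2.13 with SE 0.27, adjusted p = 7.7e-06). Among the higher ones PIEZO2, a mechanically gated channel, was at 0.57, 0.43, 0.37 and 0.24 FPKM in the opposite arteries and 3.92, 4.09, 3.00 and 3.75 FPKM in the grafts. All grafts exceeded all opposite arteries (log2 change 1.74 with SE 0.11, adjusted p = 2.1e-09). P2RX7, an ATP-gated channel of the same family as P2RX1, and TRPV4 stayed low in level, at 2.37–4.33 and 2.45–5.12 FPKM in the grafts against 0.79–1.14 and 0.62–2.76 FPKM.

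Receptors and second-messenger genes of vessel tone moved in both directions, with 12 of 37 lower and 12 higher (12 to 13 and 10 to 12 under the other scalings). NPY1R, the receptor through which neuropeptide Y constricts arteries, stood at 79.98, 72.1, 57.2 and 95.8 FPKM in the opposite arteries and 5.38, 5.77, 5.08 and 5.55 FPKM in the grafts. Its grafts lay within a narrow range far below the opposite arteries (log2 change -3.56 with SE 0.26, adjusted p = 1.4e-08). RGS5, a brake on G protein signalling found in arterial muscle and pericytes, was at 1930.2, 2317, 2384 and 2946 FPKM in the opposite arteries and 185, 196, 120.2 and 167 FPKM in the grafts (log2 change -3.84 with SE 0.43, adjusted p = 1.7e-06). In unoperated vein RGS5 averaged 11.6 ± 6.94 FPKM (SD, n = 4). The alpha adrenoceptor ADRA1B, the natriuretic peptide receptor NPR1 and the cyclic GMP phosphodiesterase PDE5A were lower, at 0.38–1.04, 9.66–15.3 and 0.37–0.86 FPKM in the grafts against 3.99–8.36, 42.5–56.6 and 5.44–9.89 FPKM.

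Other receptors rose. PTGER4, a prostaglandin E2 receptor coupled to cyclic AMP, was at 3.86, 4.48, 5.45 and 2.66 FPKM in the opposite arteries and 10.8, 24.1, 16.6 and 18.3 FPKM in the grafts (log2 change 1.83 with SE 0.19, adjusted p = 5.4e-07). ADRA2A was at 0.26, 0.32, 0.36 and 0.20 FPKM in the opposite arteries and 11.4, 7.16, 3.41 and 5.21 FPKM in the grafts (log2 change 2.50 with SE 0.23, adjusted p = 1.7e-07). In both, every graft exceeded every opposite artery. ACE, angiotensin-converting enzyme of endothelium and macrophages, rose from 2.96–4.59 to 9.34–16.1 FPKM, and the endothelin receptor EDNRB from 0.60–1.70 to 2.28–4.33 FPKM.

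Chaperones were lower as a group. Of 32 tested heat shock and folding genes, 18 were lower and 5 higher (19 to 20 and 2 to 4 under the other scalings), with a median log2 change of -0.56. The higher ones were 3 without opposite artery 2 or 4 or graft 2 or 3. HSPB6, a small heat shock protein that takes part in muscle relaxation, stood at 299.6, 413, 455 and 363 FPKM in the opposite arteries and 50.3, 29.8, 41.5 and 39.3 FPKM in the grafts. No graft came near the opposite arteries (log2 change -3.22 with SE 0.30, adjusted p = 1.8e-07). BAG3, which works with small heat shock proteins to clear damaged filaments, stood at 153, 201, 240.1 and 166 FPKM in the opposite arteries and 56.1, 28.0, 45.5 and 41.2 FPKM in the grafts (log2 change -2.15 with SE 0.19, adjusted p = 1e-07). HSPA8, the constitutive Hsp70, was at 683, 779, 916 and 769 FPKM in the opposite arteries and 250.3, 313, 244 and 273 FPKM in the grafts (log2 change -1.54 with SE 0.34, adjusted p = 0.0017). HSF1, the factor that switches on heat shock genes, went from 21.8–26.4 to 7.67–11.2 FPKM. Some of the higher members work in the endoplasmic reticulum. SDF2L1, part of a chaperone complex there, went from 1.69–2.43 to 5.56–9.62 FPKM (log2 change 1.51 with SE 0.17, adjusted p = 1.7e-06), whereas HSPA5, the main chaperone there, overlapped at 91.8–131 and 87.1–129 FPKM and did not pass.

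Genes better known from heart and skeletal muscle were present in the opposite arteries and lower in the grafts. All 9 that passed of 11 tested were lower (9 under the other scalings). TCAP, telethonin, which caps titin in striated muscle, stood at 379, 322, 344 and 353 FPKM in the opposite arteries and 51.5, 21.8, 25.9 and 30.5 FPKM in the grafts (log2 change -3.46 with SE 0.52, adjusted p = 4.5e-05). TNNT2, cardiac troponin T, was at 9.76, 21.1, 18.0 and 15.8 FPKM in the opposite arteries and 0.44, 0.70, 0.22 and 0.12 FPKM in the grafts (log2 change -3.62 with SE 0.25, adjusted p = 7e-09). MYOZ2, calsarcin, was at 16.8, 23.2, 22.6 and 18.2 FPKM in the opposite arteries and 3.93, 0.80, 1.25 and 1.61 FPKM in the grafts (log2 change -2.97 with SE 0.25, adjusted p = 5.5e-08). The grafts were lower in each of the 3 without overlap. TNNC2 and MYLPF, markers of fast skeletal muscle, were at 0 in all 8 libraries. LMCD1, a LIM protein that acts with GATA factors, stood at 819.6, 1246, 1828 and 815 FPKM in the opposite arteries and 102, 35.8, 103 and 78.3 FPKM in the grafts (log2 change -3.90 with SE 0.30, adjusted p = 2.1e-08).

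Nerve sheath genes fell. Of 13 tested nerve and Schwann cell genes 8 were lower and none higher, 8 lower under the other scalings and 4 lower without the genes at 0 in 1 or more libraries or with a filter of 5 FPKM. In a fit of the 8 libraries alone 5 were lower and 1 higher, and without graft 1 or graft 2, 1 was higher. ERBB3, the neuregulin receptor of Schwann cells, was at 5.06, 4.07, 2.58 and 6.50 FPKM in the opposite arteries and 0.31, 0.19, 0.30 and 0.29 FPKM in the grafts (log2 change -2.08 with SE 0.17, adjusted p = 5e-08), and GFAP at 1.95–4.13 and 0.09–0.24 FPKM. SCN7A, a sodium channel of Schwann cells and sensory neurons, went from 2.99–8.32 to 0–0.07 FPKM.

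**Figure D2:**
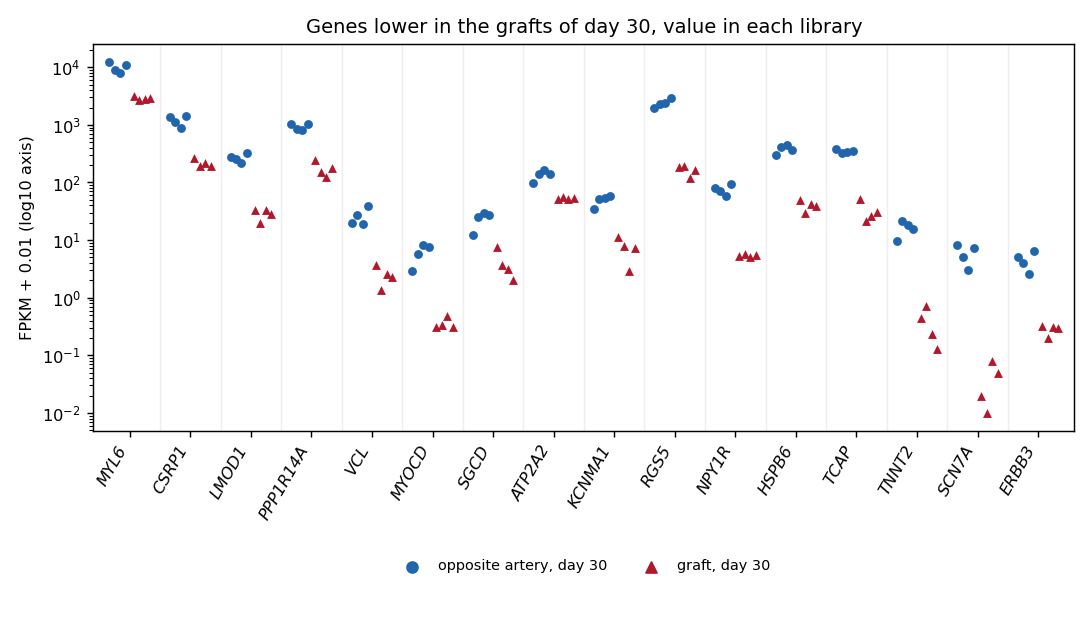
FPKM on a log10 axis in each of the 8 libraries for 16 named genes that were lower in the grafts, 0.01 being added to every value so that zeros can be drawn. Circles are opposite arteries and triangles grafts of day 30, and in each gene shown all 4 triangles lie below all 4 circles.

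Most collagen genes rose. Of 11 tested collagen genes 7 were higher and 1 lower (6 to 7 and 1 to 2 under the other scalings), with a median log2 change of 0.88. The lower one did not pass without opposite artery 3. COL1A2, a chain of type I collagen, stood at 1424, 1059, 1124 and 796 FPKM in the opposite arteries and 3805, 3231, 3422 and 3489 FPKM in the grafts. The lowest graft had over 2 times the FPKM of the highest opposite artery (log2 change 1.69 with SE 0.16, adjusted p = 2.1e-07). COL1A1, the partner chain, was at 34.9, 24.2, 22.8 and 13.1 FPKM in the opposite arteries and 88.5, 73.4, 110.0 and 86.9 FPKM in the grafts (log2 change 1.94 with SE 0.21, adjusted p = 1.4e-06). COL11A1, a minor fibril collagen of cartilage, was at 0.25, 0.26, 0.28 and 0.33 FPKM in the opposite arteries and 7.77, 10.7, 4.81 and 7.85 FPKM in the grafts, and COL12A1, which sits on fibril surfaces, at 0.94, 2.62, 3.09 and 3.24 FPKM in the opposite arteries and 24.9, 12.4, 11.5 and 17.1 FPKM in the grafts. Both were low in the opposite arteries and higher in every graft, with log2 changes of 2.73 and 2.33. COL4A2 of the basement membrane went from 59.4–76.7 to 114–154 FPKM.

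Enzymes that finish collagen did not rise as a group. Of 17 tested, 4 were higher and 5 lower (1 to 3 and 5 to 7 under the other scalings), and 3 were lower without opposite artery 1 or without graft 3. Over all genes 26.0% were higher and 11.6% lower. PLOD1, a lysyl hydroxylase, rose from 9.65–11.9 to 20.6–25 FPKM (log2 change 1.01 with SE 0.11, adjusted p = 1.8e-06), while the lysyl hydroxylase PLOD2 fell from 28.8–29.3 to 14.9–20.9 FPKM (log2 change -0.61 with SE 0.12, adjusted p = 0.00059). PCOLCE2, an enhancer of procollagen cleavage, stood at 135, 137, 148 and 118 FPKM in the opposite arteries and 37.2, 27.1, 40.3 and 34.9 FPKM in the grafts (log2 change -1.92 with SE 0.20, adjusted p = 7.3e-07), and P3H2, a prolyl hydroxylase, fell from 23.1–30.4 to 8.34–10.8 FPKM.

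Elastic fibre genes also split, 5 of 12 being lower and 3 higher (6 and 2 to 3 under the other scalings). MFAP4, which binds elastin and fibrillin, stood at 2019, 1695, 1652 and 1722 FPKM in the opposite arteries and 575, 384, 424 and 448 FPKM in the grafts (log2 change -1.96 with SE 0.18, adjusted p = 1.7e-07). EFEMP1, fibulin-3, was at 597, 538, 514 and 534 FPKM in the opposite arteries and 162, 125, 144 and 148 FPKM in the grafts (log2 change -1.91 with SE 0.32, adjusted p = 0.00012). The grafts were lower in both without overlap. FBN2, the fibrillin of growing vessels, was under 1 FPKM in all opposite arteries and at 1.60, 2.41, 2.49 and 2.28 FPKM in the grafts (log2 change 1.5 with SE 0.18, adjusted p = 4.5e-06). EMILIN2 rose from 9.03–13.6 to 36.1–66.4 FPKM (log2 change 2.12 with SE 0.24, adjusted p = 1.8e-06).

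Proteoglycan genes showed more falls than rises, 10 lower and 4 higher of 27 (11 and 1 to 3 under the other scalings). OGN, osteoglycin, a small leucine-rich proteoglycan that shapes collagen fibrils, stood at 1895, 1571, 1471 and 1497 FPKM in the opposite arteries and 467, 347, 333 and 389.8 FPKM in the grafts (log2 change -2.07 with SE 0.16, adjusted p = 1.7e-08). FMOD, fibromodulin, of the same family, stood at 324, 343, 404 and 319 FPKM in the opposite arteries and 46.1, 54.2, 26.6 and 42.2 FPKM in the grafts (log2 change -3.05 with SE 0.18, adjusted p = 1.3e-09). Neither overlapped between the groups. EPYC, epiphycan, was at 468, 249, 235 and 117 FPKM in the opposite arteries and 69.7, 15.6, 56.3 and 49.0 FPKM in the grafts, a wide spread in the opposite arteries (log2 change -2.48 with SE 0.44, adjusted p = 0.00024). Other members of the family, LUM and DCN, overlapped, at 77.4–241 and 313–887 FPKM in the opposite arteries and 106–214 and 564–759.6 FPKM in the grafts. SDC4, syndecan 4, was at 105, 479, 872 and 103 FPKM in the opposite arteries, high in libraries 2 and 3, and at 55.4–89.9 FPKM in the grafts, and without those 2 libraries it did not pass (log2 change -0.45, adjusted p = 0.41).

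Matricellular proteins, which sit in the matrix and act on cells, were higher in 10 of 21 and lower in 4 (9 to 10 and 4 to 5 under the other scalings). CTHRC1, secreted by activated adventitial fibroblasts of injured arteries, stood at 17.0, 26.9, 41.1 and 7.31 FPKM in the opposite arteries and 131, 186, 133 and 163 FPKM in the grafts. The lowest graft lay above the highest opposite artery (log2 change 2.90 with SE 0.41, adjusted p = 2.5e-05). FN1, fibronectin, stood at 43.1, 45.4, 42.9 and 44.9 FPKM in the opposite arteries and 204, 119.9, 123 and 142 FPKM in the grafts (log2 change 1.68 with SE 0.29, adjusted p = 0.00016). POSTN, periostin, was at 16.3, 10.1, 6.26 and 14.8 FPKM in the opposite arteries and 49.7, 63.7, 36.0 and 51.3 FPKM in the grafts (log2 change 2.04 with SE 0.41, adjusted p = 0.00069). TNC, tenascin C, was low throughout, at 0.29–1.02 and 1.73–3.19 FPKM. NOV, a CCN protein that restrains muscle growth, fell from 554–727 to 113–164 FPKM (log2 change -2.23 with SE 0.27, adjusted p = 3.4e-06) and SPARCL1 from 1798–2199 to 509.7–682 FPKM (log2 change -1.68 with SE 0.30, adjusted p = 0.00023). Of the thrombospondins besides THBS4, THBS3 rose from 6.90–11.4 to 17.0–21.0 FPKM (log2 change 0.90 with SE 0.13, adjusted p = 2.9e-05). THBS1 was at 10.1, 113, 210.5 and 21.2 FPKM in the opposite arteries, higher in libraries 2 and 3, and at 238, 121, 328 and 239 FPKM in the grafts, of which graft 2 lay within the range of the opposite arteries. Its log2 change was 2.15 (adjusted p = 0.011), and it did not pass in a fit of the 8 libraries alone (adjusted p = 0.10, range over all alternatives 5.1e-07 to 0.1).

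Matrix-cutting enzymes were among the largest rises. Of 13 tested matrix metalloproteinases 8 were higher and 1 lower (7 to 8 and 1 under the other scalings). The lower one did not pass when any 1 library other than graft 1 was left out. MMP9, gelatinase B, which cuts denatured collagen and basement membrane, stood at 0.20, 1.90, 3.00 and 2.00 FPKM in the opposite arteries and 39.3, 76.1, 60.4 and 62.1 FPKM in the grafts. The grafts averaged 33.5 times the opposite arteries (log2 change 4.53 with SE 0.36, adjusted p = 3.4e-08). MMP2, gelatinase A, was already abundant in the opposite arteries and stood at 153, 125, 141 and 84.9 FPKM in the opposite arteries and 248, 272, 286 and 274 FPKM in the grafts (log2 change 1.12 with SE 0.14, adjusted p = 7.7e-06). MMP11 was at 5.86, 4.42, 3.81 and 5.81 FPKM in the opposite arteries and 18.4, 23.0, 14.4 and 18.7 FPKM in the grafts (log2 change 1.71 with SE 0.16, adjusted p = 2e-07), with every graft higher. The collagenases MMP1 and MMP13 reached 3.59–11.6 and 0.68–6.06 FPKM in the grafts against 0.27–1.29 and 0–0.06 FPKM.

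Of 18 tested ADAM, ADAMTS and TIMP genes 5 were higher and 4 lower (3 to 5 and 4 to 5 under the other scalings), and 8 were higher without opposite arteries 2 and 3. The share of higher genes was thus near the 26.0% over all genes, of which 11.6% were lower. ADAM12, a membrane protease of growing and regenerating tissue, was at 0.96, 0.87, 0.68 and 0.61 FPKM in the opposite arteries and 10.9, 18.4, 7.64 and 13.2 FPKM in the grafts (log2 change 2.87 with SE 0.21, adjusted p = 1.1e-08). ADAMTS12 rose from 1.31–2.89 to 6.37–14.3 FPKM and ADAMTS5, an aggrecanase, from 1.82–8.26 to 11–18.4 FPKM. TIMP3, the matrix-bound inhibitor of these enzymes, fell, at 162, 151, 166 and 125 FPKM in the opposite arteries and 82.6, 55.1, 46.1 and 60.9 FPKM in the grafts. All grafts were below all opposite arteries (log2 change -1.31 with SE 0.23, adjusted p = 0.00022). In the plasminogen system, PLAU, urokinase, stood at 12.3, 15.0, 19.0 and 11 FPKM in the opposite arteries and 55.3, 69.1, 42.2 and 55.3 FPKM in the grafts (log2 change 1.89 with SE 0.14, adjusted p = 1.6e-08), without overlap. TFPI, the inhibitor of tissue factor, fell from 98.9–109.6 to 29.97–51.5 FPKM, while tissue factor itself (F3) overlapped at 67.5–179.8 and 41.2–142 FPKM. Over the whole list of complement and clotting genes 8 of 22 were higher and 5 lower (7 to 8 and 5 to 7 under the other scalings).

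Of 18 tested integrins, the receptors for matrix, 4 were higher and 4 lower (4 and 4 to 5 under the other scalings), against 26.0% and 11.6% of all genes. ITGA5, the fibronectin receptor chain, stood at 126, 163, 198 and 154 FPKM in the opposite arteries and 47.2, 47.1, 56.3 and 49.1 FPKM in the grafts (log2 change -1.65 with SE 0.12, adjusted p = 1.7e-08), although fibronectin rose. ITGA3, a laminin receptor chain, was at 3.53, 2.27, 2.77 and 3.05 FPKM in the opposite arteries and 19.9, 16.4, 14.6 and 17.8 FPKM in the grafts (log2 change 2.22 with SE 0.20, adjusted p = 1.3e-07), with no overlap in either. ITGAL and ITGA4, chains found on leukocytes, went from 0.08–7.24 and 0.55–1.55 to 8.73–35.7 and 3.99–6.45 FPKM.

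Macrophage genes rose. Of 26 tested 20 were higher and none lower (18 to 20 and 0 to 1 under the other scalings), with a median log2 change of 2.09, and 11 without the genes at 0 in 1 or more libraries. The deposited table held 40 genes of this list, and the filter favours higher members among those near 0 in the opposite arteries. GPNMB, a membrane glycoprotein of lipid-loaded and scavenging macrophages, stood at 15.5, 10.5, 8.47 and 7.76 FPKM in the opposite arteries and 98.0, 652, 421 and 414 FPKM in the grafts. Graft 1 was the lowest graft and still above each opposite artery (log2 change 4.86 with SE 0.49, adjusted p = 5e-07). CD14, the co-receptor for bacterial lipopolysaccharide, was at 3.21, 12, 17.6 and 4.78 FPKM in the opposite arteries and 84.3, 125, 120.5 and 113 FPKM in the grafts (log2 change 3.66 with SE 0.35, adjusted p = 3.2e-07). C1QC, a complement chain made by tissue macrophages, was at 17.3, 11.8, 14.2 and 9.56 FPKM in the opposite arteries and 79.8, 115, 143 and 118 FPKM in the grafts (log2 change 3.02 with SE 0.28, adjusted p = 2.1e-07). Its partner chains C1QA and C1QB stayed at 0 to 0.34 FPKM in grafts and opposite arteries alike. TREM2, a receptor for lipids and dying cells, was at 0.44, 1.48, 0.41 and 0 FPKM in the opposite arteries and 13.7, 24.9, 15.4 and 23.1 FPKM in the grafts (log2 change 3.72 with SE 0.44, adjusted p = 3e-06). CHI3L1, a chitinase-like secreted protein, which belongs to no list here, was at 2.86, 2.78, 3.52 and 2.85 FPKM in the opposite arteries and 46.2, 72.2, 55.1 and 58.7 FPKM in the grafts (log2 change 3.87 with SE 0.31, adjusted p = 2.7e-08). MLANA, an antigen named for pigment cells and a target of the MITF factor, was at 0.30, 0.66, 0.61 and 0.09 FPKM in the opposite arteries and 16.5, 55.0, 39.5 and 40.8 FPKM in the grafts (log2 change 4.68 with SE 0.38, adjusted p = 4.6e-08), highest in the graft in which GPNMB was highest.

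Graft 1 was lowest of the 4 grafts in CD68, GPNMB, CTSS, LGALS3 and CTSB. LGALS3, galectin 3, stood at 25.7, 18.0, 15.0 and 15.8 FPKM in the opposite arteries and 71.5, 239, 143 and 165 FPKM in the grafts, and each graft was above each opposite artery (log2 change 2.89 with SE 0.38, adjusted p = 1.1e-05). The granulocyte markers S100A8 and S100A9 did not follow, with S100A8 at 10.5, 458, 762 and 273 FPKM in the opposite arteries and 68.3, 126, 177 and 139 FPKM in the grafts. There opposite artery 1 was lowest, opposite arteries 2 to 4 were higher than all grafts, and the gene did not pass (adjusted p = 0.66). KIT, the receptor found on mast cells, rose from 0.05–0.15 to 1.20–1.99 FPKM (log2 change 1.26 with SE 0.14, adjusted p = 1.8e-06), and over the granulocyte and mast cell list 1 of 9 was higher and 2 lower (1 and 2 under the other scalings). This count turned on single libraries, with 5 lower without opposite artery 1, 1 without opposite artery 3 or graft 1 or 3, none without opposite artery 4, and 2 higher without opposite artery 4 or graft 1.

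Lysosomal genes rose in 25 of 39 and fell in none (12 to 19 and 0 to 1 under the other scalings). CTSB, cathepsin B, a protease of the lysosome, stood at 148, 129.9, 138 and 125 FPKM in the opposite arteries and 346, 912, 599 and 645 FPKM in the grafts. Its mean was 4.63 times higher in the grafts, and the groups did not overlap (log2 change 2.12 with SE 0.33, adjusted p = 5.2e-05). LIPA, the acid lipase that frees cholesterol from its esters, was at 17.7, 20.1, 21.5 and 22.2 FPKM in the opposite arteries and 86.2, 178, 142 and 147 FPKM in the grafts (log2 change 2.66 with SE 0.37, adjusted p = 2e-05). HEXA, which breaks down gangliosides, was at 62.7, 57.2, 71.1 and 42.0 FPKM in the opposite arteries and 126, 379.6, 272 and 272 FPKM in the grafts (log2 change 2.07 with SE 0.25, adjusted p = 4.6e-06). CTSS, cathepsin S, which prepares antigen for class II molecules, was at 7.03, 8.35, 9.15 and 6.75 FPKM in the opposite arteries and 54.2, 186, 141 and 139 FPKM in the grafts (log2 change 3.77 with SE 0.35, adjusted p = 1.8e-07). Of 15 tested subunits of the pump that acidifies lysosomes, 9 were higher and none lower (4 to 9 and 0 to 1 under the other scalings); ATP6V0B and ATP6V1F, which are widely expressed, rose from 32.8–37.0 and 9.65–11.8 to 71.2–119 and 21.9–36.9 FPKM.

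Iron and lipid genes showed single large rises. FTL, the light chain of the iron store ferritin, stood at 512, 479.6, 513 and 408 FPKM in the opposite arteries and 1716, 4288, 4509 and 3762 FPKM in the grafts. The grafts averaged 7.46 times the opposite arteries (log2 change 2.81 with SE 0.25, adjusted p = 1.3e-07), and of the iron and haem list 9 of 18 were higher and none lower (6 to 8 under the other scalings). SLC40A1, the iron exporter, rose from 1.67–3.89 to 4.76–9.23 FPKM. GPX1, a selenium enzyme that removes peroxides, was at 419, 381, 386 and 393 FPKM in the opposite arteries and 703, 1155, 1120.1 and 1051 FPKM in the grafts (log2 change 1.32 with SE 0.18, adjusted p = 1.3e-05). In the lipid list 10 of 26 were higher and 2 lower (9 to 10 and 2 to 3 under the other scalings). VLDLR, a lipoprotein receptor, was at 0.63, 0.68, 0.66 and 0.86 FPKM in the opposite arteries and 7.04, 6.47, 5.87 and 7.99 FPKM in the grafts (log2 change 2.19 with SE 0.13, adjusted p = 1.1e-09), and NR1H3, the oxysterol sensor LXR alpha, rose from 1.17–4.38 to 8.45–16.4 FPKM (log2 change 1.97 with SE 0.24, adjusted p = 4.4e-06). ADIPOQ, adiponectin, a fat cell hormone, stood at 9.37, 46.7, 73.1 and 8.43 FPKM in the opposite arteries and 395, 328, 290.3 and 331 FPKM in the grafts. Opposite arteries 2 and 3 were the higher ones, below all grafts (log2 change 3.79 with SE 0.52, adjusted p = 1.7e-05). The fat marker CIDEC was at 0 in all 8 libraries, and of 10 fat cell genes 3 were higher and 1 lower (1 to 2 and 1 under the other scalings); SLC2A4, the insulin-regulated glucose transporter, fell from 10.3–13.6 to 2.51–3.84 FPKM.

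T and NK cell genes were higher in the grafts. Of 12 tested T and NK cell genes 11 were higher, 10 to 11 under the other scalings and 4 without the genes at 0 in 1 or more libraries. The deposited table held 33 genes of this list. Members under 1 FPKM in all opposite arteries were tested only because other libraries reached the filter, which favours a count of higher members. CD3D, a chain of the T cell receptor complex, stood at 0, 0.45, 0.16 and 0.69 FPKM in the opposite arteries and 4.83, 2.43, 9.44 and 5.0 FPKM in the grafts (log2 change 2.20 with SE 0.31, adjusted p = 2.6e-05). IL7R, the receptor for a survival factor of T cells, was at 0, 0.65, 0.69 and 1.30 FPKM in the opposite arteries and 4.40, 9.81, 4.95 and 6.62 FPKM in the grafts (log2 change 2.17 with SE 0.34, adjusted p = 6.3e-05). All grafts were higher in both. JCHAIN, which joins secreted IgA and IgM, was at 1.22, 8.71, 12.7 and 7.67 FPKM in the opposite arteries and 269.5, 80.2, 413 and 243 FPKM in the grafts, and MZB1, a folding helper of plasma cells, at 0, 0, 0.54 and 1.11 FPKM in the opposite arteries and 6.12, 2.20, 19.7 and 11.6 FPKM in the grafts. Graft 3 was the highest and graft 2 the lowest in both genes (log2 change 4.93 with SE 0.72, adjusted p = 3.4e-05 for the first and log2 change 2.71 with SE 0.45, adjusted p = 0.00011 for the second). Of the 5 B and plasma cell genes tested 3 were higher (3 under the other scalings), and 1 without the genes at 0 in 1 or more libraries. The deposited table held 21 genes of this list, and the same limit of the filter applies.

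Antigen presentation rose with them, in 13 of 16 tested genes (9 to 11 under the other scalings), median log2 change 1.35. HLA-DMA, which loads peptides onto class II molecules, stood at 1.80, 1.54, 1.33 and 1.06 FPKM in the opposite arteries and 21.0, 34.6, 61.3 and 38.1 FPKM in the grafts (log2 change 3.94 with SE 0.24, adjusted p = 1.4e-09), and RLA-DRB1, a rabbit class II beta chain, at 1.88, 4.23, 3.74 and 3.49 FPKM in the opposite arteries and 89.6, 81.8, 200.04 and 126 FPKM in the grafts (log2 change 4.8 with SE 0.26, adjusted p = 3.9e-10). Class II genes have near-identical copies, between which the deposited values could have been split. B2M, the light chain of class I molecules, was at 74.1, 76.0, 75.2 and 57.7 FPKM in the opposite arteries and 162, 161, 409.5 and 270.4 FPKM in the grafts (log2 change 1.71 with SE 0.30, adjusted p = 0.00019). PSMB10, a subunit of the immunoproteasome, was at 0.90, 0, 1.22 and 1.83 FPKM in the opposite arteries and 9.90, 12.3, 31.1 and 16.8 FPKM in the grafts (log2 change 3.19 with SE 0.29, adjusted p = 1.5e-07). Graft 3 was the highest library in each of these 4 genes. Of the constitutive proteasome 4 of 27 tested were higher and 6 lower (0 to 2 and 7 to 10 under the other scalings), and without graft 2 there were 2 higher. Its 37.0% passing was near the 37.6% over all genes.

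Interferon-response genes were higher in 14 of 26 and lower in none (9 to 12 under the other scalings), and 9 were higher without opposite artery 2 and graft 4. IRF8, an interferon regulatory factor of myeloid and B cells, was at 1.66, 2.13, 3.46 and 1.46 FPKM in the opposite arteries and 7.62, 9.71, 15.9 and 11.9 FPKM in the grafts (log2 change 1.95 with SE 0.21, adjusted p = 1.4e-06), and PARP14 rose from 1.16–2.36 to 6.29–6.82 FPKM (log2 change 1.54 with SE 0.18, adjusted p = 3.1e-06). CXCL9, a chemokine induced by interferon gamma, was at 0.03, 0.10, 0.18 and 0.03 FPKM in the opposite arteries and 0.68, 0.19, 28.4 and 12.1 FPKM in the grafts. Graft 3 and graft 4 carried almost all of it, while graft 2 was within 0.02 FPKM of the highest opposite artery (adjusted p = 0.013, range over the alternatives 7.8e-06 to 0.11).

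Cytokines and chemokines were higher in 16 of 32 tested and lower in none (12 to 15 and 1 to 3 under the other scalings), 1 being lower without opposite artery 1 or without opposite artery 4. Without opposite arteries 2 and 3 the count was 21, and without the genes at 0 in 1 or more libraries it was 8. CCL21, which draws dendritic cells and T cells through lymphatic vessels, stood at 6.34, 64.5, 125 and 17.0 FPKM in the opposite arteries and 321, 250.5, 335 and 311 FPKM in the grafts. Opposite arteries 2 and 3 were the higher of their group and all 4 lay below the grafts (log2 change 3.23 with SE 0.57, adjusted p = 0.0002). CCL14 was at 8.73, 8.04, 9.34 and 6.36 FPKM in the opposite arteries and 32.6, 39.3, 29.7 and 32.6 FPKM in the grafts (log2 change 1.93 with SE 0.19, adjusted p = 3.4e-07) and TNFSF10, the death ligand TRAIL, at 1.48, 1.48, 2.03 and 2.68 FPKM in the opposite arteries and 9.17, 14.2, 13.5 and 12.2 FPKM in the grafts (log2 change 2.19 with SE 0.24, adjusted p = 1.4e-06). The anti-inflammatory IL10 rose from 0.46–0.77 to 2.33–4.76 FPKM (log2 change 1.34 with SE 0.19, adjusted p = 2.7e-05).

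Several acute inflammatory genes were called or not depending on opposite arteries 2 and 3. IL6, the acute-phase cytokine, stood at 1.08, 111, 225 and 0.13 FPKM in the opposite arteries and 161, 2.11, 31.1 and 57.9 FPKM in the grafts and did not pass (adjusted p = 0.61). Opposite arteries 2 and 3 and graft 1 were high, opposite arteries 1 and 4 near 0. SELE, E-selectin of activated endothelium, was at 0.20, 50.5, 95.0 and 0.22 FPKM in the opposite arteries and 17.7, 3.26, 6.62 and 6.04 FPKM in the grafts and CXCL8, which draws neutrophils, at 1.1, 71.5, 129.8 and 5.24 FPKM in the opposite arteries and 45.8, 12.8, 15.1 and 22.1 FPKM in the grafts, with the same opposite arteries high. Neither passed (adjusted p = 0.92 and 0.87). Without opposite arteries 2 and 3 the 3 genes passed as higher in the grafts, IL6 with log2 change 4.35, adjusted p = 0.0032, SELE with log2 change 2.74, adjusted p = 0.0029 and CXCL8 with log2 change 2.61, adjusted p = 0.001. ICAM1 and VCAM1, adhesion molecules for leukocytes, were at 31.7, 168, 320.1 and 16.2 and 2.89, 37.9, 68.9 and 1.49 FPKM in the opposite arteries and at 55.4–89.0 and 6.14–12.6 FPKM in the grafts. Without opposite arteries 2 and 3 they also passed (log2 change 1.5, adjusted p = 0.00016 for the first and log2 change 1.58, adjusted p = 0.0012 for the second). The immediate early list had 3 of 36 higher and 3 lower (2 and 4 to 5 under the other scalings), and 8 higher and 3 lower without opposite arteries 2 and 3. Without opposite artery 3 alone 5 were higher, and without graft 2 alone 6. FOS, its best known member, ranged from 76.0–1262 FPKM in the opposite arteries and 468–944 FPKM in the grafts, lowest in opposite artery 3. KLF15, a glucocorticoid-induced factor, separated the groups, at 23.6, 21.2, 23.9 and 22.9 FPKM in the opposite arteries and 2.86, 0.82, 5.01 and 2.10 FPKM in the grafts (log2 change -2.82 with SE 0.25, adjusted p = 1e-07).

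**Figure D3:**
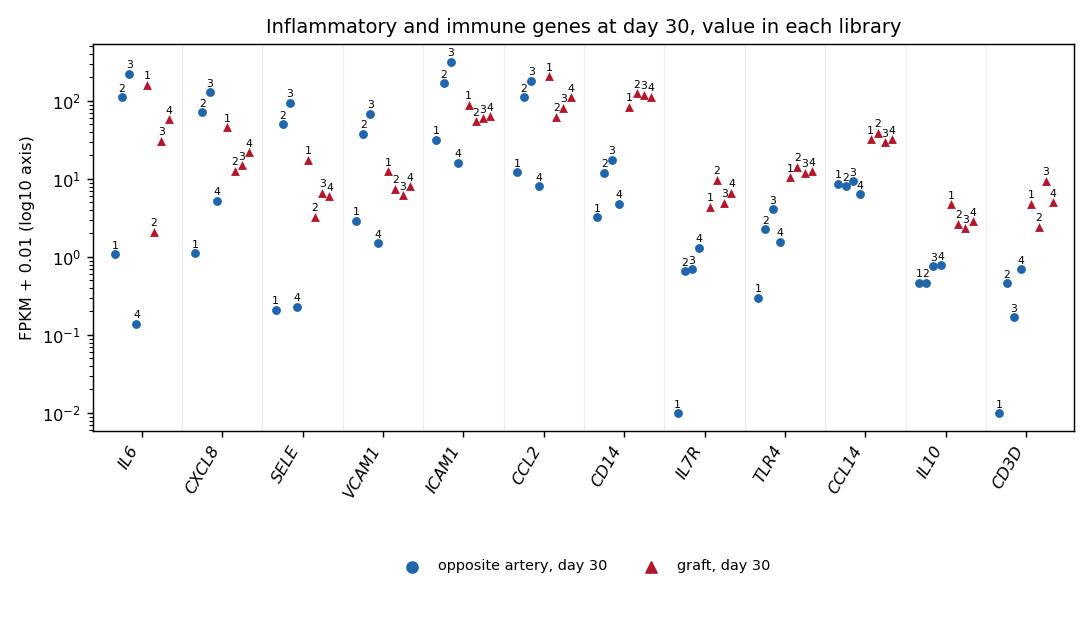
FPKM on a log10 axis in each of the 8 libraries of day 30 for 12 inflammatory and immune genes, 0.01 being added to every value so that zeros can be drawn. Circles are opposite arteries and triangles grafts, each numbered by replicate. For IL6, CXCL8, SELE, VCAM1, ICAM1 and CCL2 opposite arteries 2 and 3 lie far above 1 and 4, whereas for CD14, IL7R, TLR4, CCL14, IL10 and CD3D all grafts lie above all opposite arteries.

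Receptors for cytokines and chemokines were higher in 17 of 33 and lower in 2 (14 to 16 and 2 to 3 under the other scalings). CXCR4, the receptor for CXCL12, stood at 0, 2.22, 1.82 and 8.06 FPKM in the opposite arteries and 13.1, 29.8, 24.7 and 25.6 FPKM in the grafts (log2 change 2.95 with SE 0.44, adjusted p = 4.2e-05). TLR4, the receptor for lipopolysaccharide, was at 0.29, 2.27, 4.11 and 1.56 FPKM in the opposite arteries and 10.5, 14.3, 12 and 12.6 FPKM in the grafts (log2 change 2.29 with SE 0.32, adjusted p = 1.9e-05), and the death receptor TNFRSF21 at 4.66, 8.02, 8.19 and 6.94 FPKM in the opposite arteries and 29.3, 30.6, 26.3 and 31.1 FPKM in the grafts (log2 change 1.95 with SE 0.15, adjusted p = 2.3e-08). In all 3 the grafts were higher without overlap. The members that fell were TNFRSF12A, the TWEAK receptor, from 4.68–8.81 to 0.59–1.43 FPKM, and TNFRSF11B, osteoprotegerin, from 57.1–59.5 to 16.4–33.4 FPKM.

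Endothelial genes were higher in 21 of 37 tested and lower in 1 (19 to 21 and 1 to 2 under the other scalings), and in 25 without opposite arteries 2 and 3. VWF, von Willebrand factor, stood at 9.64, 14.5, 19.5 and 8.74 FPKM in the opposite arteries and 150.5, 116, 131 and 131 FPKM in the grafts. Every graft exceeded every opposite artery (log2 change 3.30 with SE 0.22, adjusted p = 5.5e-09). CDH5, VE-cadherin of endothelial junctions, was at 14.5, 20.5, 28.4 and 10.3 FPKM in the opposite arteries and 74.6, 87.8, 70.7 and 82.4 FPKM in the grafts (log2 change 2.13 with SE 0.24, adjusted p = 2.1e-06). PLVAP, which forms the diaphragms of capillary and venous endothelium, was at 4.72, 11.3, 18.3 and 6.37 FPKM in the opposite arteries and 229, 163, 134 and 173 FPKM in the grafts (log2 change 4.11 with SE 0.29, adjusted p = 7.8e-09). APLNR, the apelin receptor of sprouting vessels, was at 0.50, 1.23, 1.03 and 0.47 FPKM in the opposite arteries and 29.9, 29.98, 18.9 and 25.4 FPKM in the grafts (log2 change 3.91 with SE 0.28, adjusted p = 1.1e-08). KDR, the main VEGF receptor, was at 0.42, 1.45, 2.36 and 0.40 FPKM in the opposite arteries and 15.9, 19.3, 9.60 and 14.8 FPKM in the grafts (log2 change 2.94 with SE 0.29, adjusted p = 4.5e-07). In unoperated vein the means were 441 ± 47.4 FPKM for VWF, 175 ± 33.0 for PLVAP, 3.31 ± 1.34 for APLNR and 3.52 ± 1.27 for KDR (SD, n = 4), so that APLNR and KDR were higher in the grafts than in either unoperated vessel, as values set side by side. The vein was not tested against the grafts here.

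Genes that tell arteries from veins did not move in a single direction. Of 19 tested 13 were higher and 3 lower (9 to 10 and 3 under the other scalings). Genes of arterial endothelium rose: GJA4, connexin 37, stood at 3.37, 3.01, 2.26 and 1.59 FPKM in the opposite arteries and 22.9, 49.98, 23.9 and 34.2 FPKM in the grafts (log2 change 3.20 with SE 0.42, adjusted p = 1.1e-05), and the Notch ligand DLL4 at 1.93, 1.67, 2.00 and 1.09 FPKM in the opposite arteries and 11.1, 11, 9.20 and 11.4 FPKM in the grafts (log2 change 2.14 with SE 0.33, adjusted p = 5.5e-05). JAG1, another Notch ligand, was at 24.5, 16.4, 11.3 and 20.6 FPKM in the opposite arteries and 39.7, 59.9, 44.0 and 49.7 FPKM in the grafts (log2 change 1.40 with SE 0.24, adjusted p = 0.00014). ACKR1, a chemokine-binding receptor of venules, was at 2.84, 3.60, 5.26 and 0.83 FPKM in the opposite arteries and 40.5, 31.1, 41.6 and 41.3 FPKM in the grafts (log2 change 3.38 with SE 0.26, adjusted p = 1.8e-08), and in vein at 126 ± 24.3 FPKM. These arterial genes and the venular ACKR1 were thus higher in all 4 grafts. HAND2, a transcription factor of the arterial wall, fell from 1.34–3.67 to 0.25–0.54 FPKM (log2 change -1.39 with SE 0.25, adjusted p = 0.00028). NR2F2, a transcription factor of veins, was at 2.12, 1.04, 0.52 and 2.19 FPKM in the opposite arteries and 2.60, 10.1, 3.13 and 4.50 FPKM in the grafts, with vein at 14.9 ± 2.97 FPKM. It passed (log2 change 1.22 with SE 0.42, adjusted p = 0.03), with adjusted p from 0.0016 to 0.26 over the alternatives. TBX18, also taken as a vein marker, passed as lower and so went the other way. It was at 6.91 to 11.4 FPKM in the opposite arteries and 5.12 to 6.0 FPKM in the grafts, and averaged 15.15 FPKM in vein. EPHB4, another venous marker, was at 0 in all veins and grafts and in 3 of the opposite arteries.

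Guidance receptors and ligands, which vessels share with nerves, were higher in 10 of 24 and lower in 3 (8 to 10 and 3 to 4 under the other scalings), against 26.0% and 11.6% of all genes. PLXND1, a semaphorin receptor of endothelium, stood at 0.73, 1.62, 1.68 and 1.30 FPKM in the opposite arteries and 7.42, 13.1, 9.02 and 9.93 FPKM in the grafts (log2 change 2.21 with SE 0.17, adjusted p = 2.1e-08). SLIT2 fell, from 13–17.4 to 1.42–3.45 FPKM (log2 change -2.39 with SE 0.29, adjusted p = 3.9e-06), while SLIT3 rose, from 22.4–45.7 to 69.3–91.1 FPKM (log2 change 1.07 with SE 0.19, adjusted p = 0.00026). The ligands of the same family therefore changed in opposite directions.

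Adventitial fibroblast genes were higher in 4 of 24 and lower in 5 (2 to 4 and 5 to 6 under the other scalings). The 37.5% that passed was near the 37.6% over all genes. RBP4, the carrier of retinol, stood at 291, 247, 290.2 and 192 FPKM in the opposite arteries and 34.6, 13.3, 43.2 and 30.4 FPKM in the grafts (log2 change -3.12 with SE 0.59, adjusted p = 0.00038). ALDH1A3, which makes retinoic acid, was at 2.41, 2.89, 3.62 and 1.36 FPKM in the opposite arteries and 15.3, 7.25, 9.35 and 11 FPKM in the grafts (log2 change 1.71 with SE 0.21, adjusted p = 4.4e-06). In the list of genes known from muscle cells that have left the contractile state 12 of 27 were higher and 4 lower, 8 to 10 and 6 to 8 under the other scalings. VIM, vimentin, the intermediate filament of mesenchymal cells, fell, at 3639, 3450.1, 3331 and 3570.0 FPKM in the opposite arteries and 1811, 1787, 2022 and 1956 FPKM in the grafts (log2 change -0.89 with SE 0.08, adjusted p = 1.7e-07). PDGFRB, the receptor that drives muscle migration, rose, at 28.4, 24.9, 19.6 and 25.3 FPKM in the opposite arteries and 61.1, 54.2, 36.0 and 49.8 FPKM in the grafts (log2 change 0.99 with SE 0.16, adjusted p = 7.3e-05). TMSB10, thymosin beta 10, which binds actin monomers, had the largest gain in FPKM among genes with a symbol that passed without overlap, those of the mitochondrial genome aside, at 2675, 3486, 3641 and 3852 FPKM in the opposite arteries and 9046, 11735, 11236 and 10255 FPKM in the grafts (log2 change 1.64 with SE 0.14, adjusted p = 5.2e-08). All grafts were higher than all opposite arteries in the last pair of genes.

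Growth factor genes and their receptors were higher in 19 of 50 and lower in 12 (15 to 19 and 15 to 17 under the other scalings), against 26.0% and 11.6% of all genes. IGF1, insulin-like growth factor 1, stood at 13.6, 11.4, 21.7 and 10.1 FPKM in the opposite arteries and 75.7, 55.5, 61.1 and 61.8 FPKM in the grafts. The lowest graft had more than 2 times the FPKM of the highest opposite artery (log2 change 2.13 with SE 0.25, adjusted p = 2.4e-06). PDGFC was at 1.84, 2.16, 1.52 and 1.66 FPKM in the opposite arteries and 8.14, 6.62, 6.84 and 6.13 FPKM in the grafts (log2 change 1.5 with SE 0.17, adjusted p = 1.6e-06), and PDGFB, a mitogen for muscle cells, rose from 0–0.62 to 1.49–3.06 FPKM (log2 change 1.36 with SE 0.20, adjusted p = 2.9e-05). FGF7, made by fibroblasts, rose from 0.23–0.96 to 2.80–7.02 FPKM (log2 change 1.95 with SE 0.21, adjusted p = 1.1e-06). FGF2, the basic fibroblast growth factor stored in muscle cells, fell from 4.78–10.6 to 1.54–3.84 FPKM (log2 change -1.30 with SE 0.31, adjusted p = 0.0031) and did not pass without opposite arteries 2 and 3 (log2 change -0.91, adjusted p = 0.074). AXL, a receptor tyrosine kinase of arterial muscle, was at 5.25, 11.7, 7.93 and 13.2 FPKM in the opposite arteries and 0, 0, 0.70 and 1.05 FPKM in the grafts (log2 change -2.87 with SE 0.39, adjusted p = 1.5e-05). Grafts 1 and 2 were listed at 0 for AXL.

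The TGF-beta and BMP list had 7 of 41 higher and 7 lower (5 to 7 and 9 to 10 under the other scalings). With 34.1% passing it was near the 37.6% over all genes. BAMBI, a decoy receptor, stood at 106, 86.8, 89.6 and 119 FPKM in the opposite arteries and 14.1, 4.56, 5.43 and 7.18 FPKM in the grafts (log2 change -3.62 with SE 0.28, adjusted p = 2.3e-08). SOST, sclerostin, an inhibitor of Wnt receptors, was at 27.1, 19.97, 10.4 and 32.2 FPKM in the opposite arteries and 0.74, 0.50, 0.20 and 0.45 FPKM in the grafts (log2 change -3.90 with SE 0.24, adjusted p = 1.5e-09). TGFBR2, the receptor that binds TGF-beta, was at 36.5, 40.7, 44.1 and 29.5 FPKM in the opposite arteries and 82.9, 89.7, 80.9 and 87.0 FPKM in the grafts (log2 change 1.17 with SE 0.13, adjusted p = 1.8e-06). ENG, its endothelial co-receptor, was at 31.3, 26.9, 37.3 and 21.2 FPKM in the opposite arteries and 114, 116, 122 and 115 FPKM in the grafts (log2 change 1.99 with SE 0.17, adjusted p = 7.5e-08). BAMBI and SOST thus fell where TGFBR2 and ENG rose, in each case with no overlap.

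In the Wnt list 7 of 27 were higher and 7 lower (5 to 6 and 7 to 9 under the other scalings). The share of higher genes was thus near the 26.0% over all genes, of which 11.6% were lower. NKD1, a feedback inhibitor induced by Wnt signals, stood at 32.0, 30.8, 28.8 and 38.2 FPKM in the opposite arteries and 4.49, 6.41, 3.31 and 5.28 FPKM in the grafts (log2 change -2.53 with SE 0.26, adjusted p = 6.3e-07), and AXIN2 and ZNRF3, feedback inhibitors of the same kind, fell from 2.73–3.88 and 6.27–7.71 to 1.42–1.58 and 1.76–2.26 FPKM. FZD6, a Wnt receptor, rose from 0.31–1.51 to 5.81–11.4 FPKM (log2 change 2.23 with SE 0.26, adjusted p = 2.2e-06). Bone and cartilage genes were higher in 2 of 13 and lower in 6 (2 and 7 under the other scalings). Among them CNMD, chondromodulin, which keeps tissue free of vessels, was at 11, 14.8, 13.8 and 15.6 FPKM in the opposite arteries and 0.50, 0, 0.17 and 0 FPKM in the grafts (log2 change -3.67 with SE 0.28, adjusted p = 2.3e-08).

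Cell division genes were higher. Of 29 tested mitotic genes 22 were higher and none lower (18 to 22 and 0 to 1 under the other scalings), and of 27 DNA replication genes 19 were higher and 1 lower (12 to 16 and 1 to 3 under the other scalings). The deposited table held 57 and 46 genes of these lists. Members under 1 FPKM in all opposite arteries were tested only because other libraries reached the filter. Levels of the tested genes stayed low. CCNA2, cyclin A2, stood at 0, 0.54, 0.30 and 0.55 FPKM in the opposite arteries and 4.03, 7.74, 3.18 and 4.56 FPKM in the grafts (log2 change 2.09 with SE 0.29, adjusted p = 2e-05). CCNB1, cyclin B1, was at 0.59, 0.41, 0.59 and 0.38 FPKM in the opposite arteries and 3.66, 5.59, 3.02 and 3.82 FPKM in the grafts (log2 change 1.73 with SE 0.22, adjusted p = 6.7e-06). RRM2, which makes the building blocks of DNA, was at 0.77, 0.89, 1.33 and 0.88 FPKM in the opposite arteries and 5.31, 5.63, 5.51 and 4.97 FPKM in the grafts (log2 change 1.70 with SE 0.29, adjusted p = 0.00015). Each graft exceeded each opposite artery in these 3 genes. RFC3, a clamp loader subunit, was the member that fell, from 4.96–6.34 to 2.72–4.67 FPKM.

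Cell death genes were tested in opposed lists. Of 20 genes that promote death 12 were higher and 1 lower (7 to 10 and 1 to 2 under the other scalings), and of 21 that restrain it 4 and 4 (1 to 4 and 4). Without opposite arteries 2 and 3 the second list had 7 higher and 2 lower, and without opposite artery 3 alone 2 were lower. BAK1, which opens the mitochondrial membrane, was at 5.60, 7.10, 11.7 and 7.45 FPKM in the opposite arteries and 16, 26.4, 22.7 and 17.1 FPKM in the grafts (log2 change 1.28 with SE 0.20, adjusted p = 7.8e-05). BCL2A1, a survival protein of leukocytes, rose most, at 0.64, 5.97, 9.75 and 5.14 FPKM in the opposite arteries and 26.4, 38.6, 35.8 and 35.1 FPKM in the grafts (log2 change 2.73 with SE 0.41, adjusted p = 4.2e-05). BAX was at 12.4, 12.6, 13.6 and 11.5 FPKM in the opposite arteries and 15.3, 34.1, 25.3 and 32.5 FPKM in the grafts (log2 change 0.98 with SE 0.22, adjusted p = 0.0019), graft 1 being the lowest graft. BCL2, the survival protein, was at 1.83, 3.59, 5.27 and 4.10 FPKM in the opposite arteries and 0.83, 2.07, 1.17 and 0.82 FPKM in the grafts (log2 change -1.06 with SE 0.25, adjusted p = 0.0027), and graft 2 overlapped with opposite artery 1. Each of the last pair passed in all alternatives except 1, with adjusted p over them from 6.8e-06 to 0.075 for BAX and from 4.2e-06 to 0.051 for BCL2.

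Position genes of the HOX and related families were higher in 8 of 22 and lower in 5 (5 to 7 and 5 under the other scalings), against 26.0% and 11.6% of all genes. Without the genes at 0 in 1 or more libraries 5 were higher, and without opposite artery 4 there were 3 lower. MEOX2, a homeobox factor of vessels, stood at 14.3, 5.46, 4.27 and 8.18 FPKM in the opposite arteries and 31.5, 49.0, 34.4 and 39.2 FPKM in the grafts. The grafts were 4.79 times higher on average (log2 change 2.23 with SE 0.25, adjusted p = 1.8e-06), and vein was at 49.5 ± 3.48 FPKM. HOXA5 was at 0.83, 0.48, 0.71 and 0.52 FPKM in the opposite arteries and 7.01, 5.43, 2.11 and 3.66 FPKM in the grafts (log2 change 1.68 with SE 0.34, adjusted p = 0.00081) and HOXD4 at 0.39, 0.21, 0.24 and 0 FPKM in the opposite arteries and 2.41, 2.07, 2.15 and 2.71 FPKM in the grafts (log2 change 1.47 with SE 0.18, adjusted p = 4.4e-06), low in level and higher in every graft. DLX5 rose from 0.10–0.64 to 2.41–4.77 FPKM.

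Glucose handling fell in part. Of 34 glycolysis and hypoxia genes 9 were lower and 5 higher (10 to 11 and 1 to 3 under the other scalings), and 3 were higher without opposite artery 2 or without graft 2. HIF1A, the oxygen-regulated transcription factor, stood at 283, 279.7, 283 and 279 FPKM in the opposite arteries and 139, 103, 90.9 and 115 FPKM in the grafts. The opposite arteries lay within 5 FPKM of each other, and the highest graft was far below them (log2 change -1.34 with SE 0.10, adjusted p = 1.3e-08). PFKP, the platelet form of phosphofructokinase, was at 110.3, 122, 131 and 131 FPKM in the opposite arteries and 31.3, 34.9, 24.9 and 33.8 FPKM in the grafts (log2 change -1.96 with SE 0.16, adjusted p = 4.4e-08), and the glucose transporter SLC2A1 at 8.14, 12.2, 14.6 and 11.1 FPKM in the opposite arteries and 1.80, 4.89, 1.62 and 3.30 FPKM in the grafts (log2 change -1.74 with SE 0.26, adjusted p = 4.9e-05). GPI, which isomerizes glucose phosphate, rose from 52.3–58.4 to 88.4–119 FPKM (log2 change 0.90 with SE 0.10, adjusted p = 1.4e-06). Nuclear genes of the respiratory chain did not move together, 6 of 34 being higher and 4 lower (1 to 3 and 6 to 9 under the other scalings). Of these 1 was higher without opposite artery 3, 2 without graft 2 and 3 without graft 4, and 2 were lower without opposite artery 1 or 2 or graft 1 or 3. Without both opposite artery 2 and graft 4, 1 was higher and 1 lower. Of the 13 protein genes of the mitochondrial genome 8 passed as higher and none as lower (8 and 0 to 1 under the other scalings; 4 higher without opposite artery 1, opposite artery 4 or graft 1, and 5 without graft 2 or 4), while graft 3 was near 0 for ATP8, ND4L and ATP6 and opposite arteries 1 and 4 near 0 for CYTB and ND5, so that these values follow libraries as well as groups.

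Ribosomal protein genes were higher in 5 of 39 and lower in none (1 to 7 and 0 to 5 under the other scalings, 3 higher without opposite artery 2, 3 or 4 and 2 without graft 2 or 4, and 1 lower without opposite artery 3 or graft 2). Solute transporters were higher in 6 of 21 with 5 lower (2 to 4 and 5 to 6, and 3 higher without graft 2), and red cell and platelet genes in 0 of 5 with 1 lower (0 and 1 under the other scalings, and 1 higher without opposite artery 4). Over all genes the shares were 26.0% higher and 11.6% lower. Cytoskeleton and motility genes were divided, 15 of 42 higher and 16 lower (13 to 15 and 16 to 18 under the other scalings). The higher ones included ARPC1B and ARPC3, subunits of the complex that branches actin, and CORO1A, a coronin of leukocytes. ARPC1B stood at 89.0, 66.7, 74.1 and 55.0 FPKM in the opposite arteries and 186, 292, 259.7 and 245 FPKM in the grafts (log2 change 1.78 with SE 0.14, adjusted p = 2.2e-08). Among the lower ones LIMS2, an integrin-linked adaptor of muscle, stood at 289, 266, 245 and 294 FPKM in the opposite arteries and 76.0, 55.2, 66.7 and 61.4 FPKM in the grafts (log2 change -2.07 with SE 0.29, adjusted p = 1.8e-05).

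**Figure D4:**
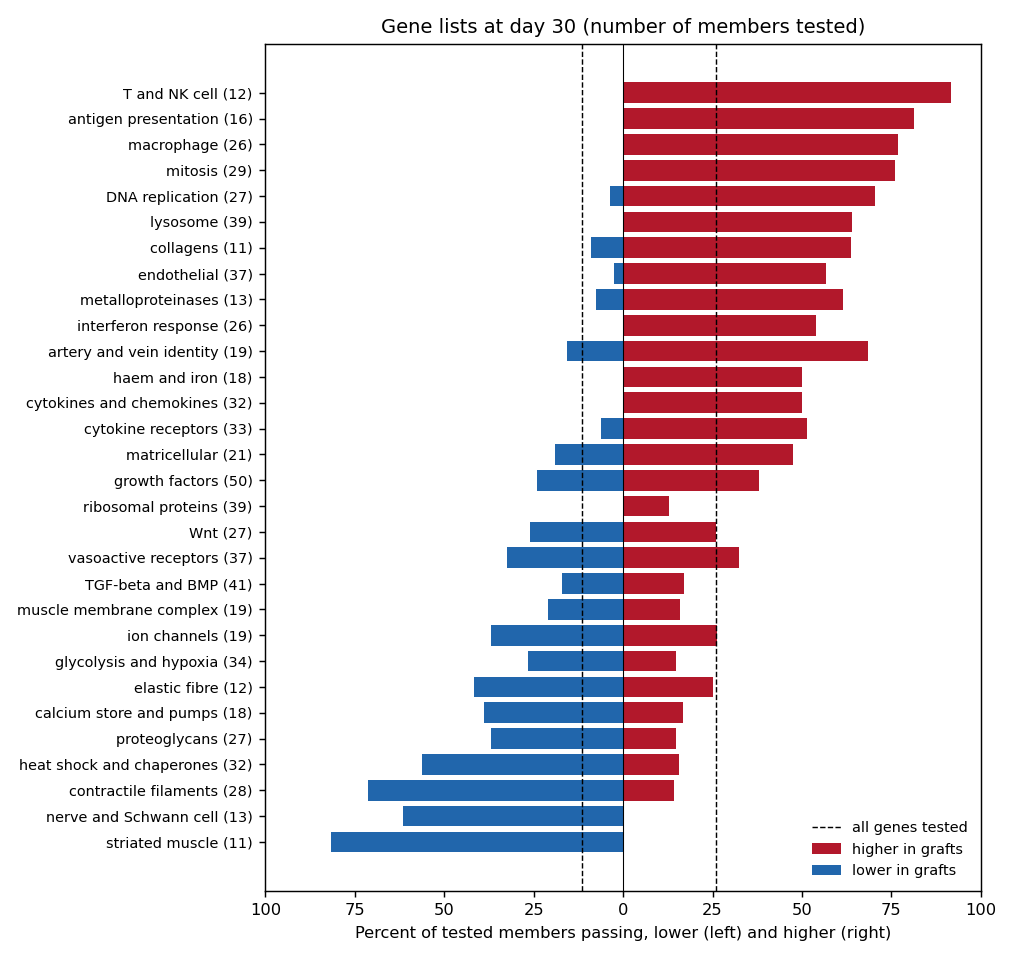
Percent of the tested members of each gene list that were higher (right) or lower (left) in the grafts of day 30 at an adjusted p under 0.05, with the number tested beside the name. Dashed lines mark the percent over all 8657 genes, 26.0% higher and 11.6% lower, and T cell, antigen presentation and macrophage genes extend farthest to the right, striated muscle, contractile and nerve sheath genes farthest to the left. The plot holds 30 of the lists. For lists with many genes under 1 FPKM in all opposite arteries, the filter favours members that were higher.

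A few genes were listed at 0 in a whole group, for which no fold is given. IL34, a ligand of the macrophage growth receptor, was at 0 in all opposite arteries and at 6.45, 4.24, 9.30 and 3.84 FPKM in the grafts, and CCL17, which draws T cells, at 0 and 1.67, 5.01, 6.46 and 7.23 FPKM. MAN2A2, an enzyme that trims N-linked sugars, was at 9.11, 11.7, 5.87 and 16.9 FPKM in the opposite arteries and at 0 in all grafts. A listed 0 can be a failed estimate.

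Day 30 was set against day 14 in the same fit. Of the 3253 genes that passed at day 30, 2617 also passed at day 14, 2576 with the same sign and 41 with the opposite sign, and 636 did not. The difference between the day 30 and day 14 changes was itself past the threshold in 1121 genes (12.9%), 466 more positive and 655 more negative at day 30. Of the 636, 128 were among them. The 4 opposite arteries of day 14 spread less than any other group, with a median SD of 0.10 on the log2 scale against 0.21 in the opposite arteries and grafts of day 30. With them counted as 1 sample the difference passed in 93 genes, and those named next are among the 93.

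ACKR1 rose from 7.99 ± 0.92 FPKM in the opposite arteries and 14.5 ± 1.69 FPKM in the grafts at day 14 to a larger gap at day 30, 3.13 ± 1.84 FPKM in the opposite arteries and 38.6 ± 5.01 FPKM in the grafts (SD, n = 4 in each group; difference 2.60, SE 0.36, adjusted p = 0.00026, or 0.032 with the day 14 opposite arteries as 1 sample). HIF1A was at 156 ± 5.47 FPKM in the opposite arteries and 148 ± 10.9 FPKM in the grafts at day 14, where its change was -0.07, against -1.34 at day 30 (difference -1.26, SE 0.14, adjusted p = 2.4e-05, or 0.011 with the day 14 opposite arteries as 1 sample). At day 30 the opposite arteries stood above those of day 14 by more FPKM than the grafts stood below theirs. Most of the HIF1A difference between days thus lay in the opposite arteries. ADRA2A changed by 0.08 at day 14 and 2.50 at day 30 (difference 2.42, SE 0.32, adjusted p = 0.00017, or 0.028 with the day 14 opposite arteries as 1 sample). KITLG, stem cell factor, was lower in the grafts at day 14 and higher at day 30, with changes of -0.66 and 1.47 (difference 2.14, SE 0.25, adjusted p = 4.8e-05, or 0.014 with the day 14 opposite arteries as 1 sample). FGF1, acidic fibroblast growth factor, behaved likewise with -1.13 and 1.15 (difference 2.27, SE 0.15, adjusted p = 6e-08, or 0.00014 with the day 14 opposite arteries as 1 sample), and so did SLIT3 with -0.72 and 1.07 (difference 1.80, SE 0.27, adjusted p = 0.00049, or 0.048 with the day 14 opposite arteries as 1 sample). In these last 3 the grafts of the later day stood above the opposite arteries where those of the earlier day stood below.

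Some changes were smaller at day 30. PLN, the regulator of the calcium pump, changed by -4.34 at day 14 and -2.20 at day 30 (difference 2.14, SE 0.17, adjusted p = 7.6e-07, or 0.00088 with the day 14 opposite arteries as 1 sample). LDHA, lactate dehydrogenase, changed by 2.57 and 0.64 (difference -1.93, SE 0.19, adjusted p = 1.1e-05, or 0.0057 with the day 14 opposite arteries as 1 sample). TNC went from 2.88 to 1.11 (difference -1.77, SE 0.27, adjusted p = 0.00049, or 0.048 with the day 14 opposite arteries as 1 sample). F3, tissue factor, was at 50.5 ± 1.05 FPKM in the opposite arteries and 2.94 ± 0.25 FPKM in the grafts at day 14, whereas at day 30 the groups overlapped (difference 3.54, SE 0.45, adjusted p = 0.00011, or 0.022 with the day 14 opposite arteries as 1 sample). Opposite arteries of the 2 days differed in level for some genes, HIF1A above among them. SSPN, sarcospan, was at 0.32 ± 0.64 FPKM in the opposite arteries and 27.4 ± 11.5 FPKM in the grafts at day 14 and at 51.9 ± 16.6 FPKM in the opposite arteries and 14.2 ± 4.78 FPKM in the grafts at day 30, so that its sign turned (difference -6.23, SE 0.47, adjusted p = 3.4e-07, or 0.00012 with the day 14 opposite arteries as 1 sample). FAM83D was at 1.05 ± 0.25 FPKM in the opposite arteries and 1.93 ± 0.32 FPKM in the grafts at day 14 and at 26.7 ± 10.2 FPKM in the opposite arteries and 1.53 ± 0.31 FPKM in the grafts at day 30 (difference -3.89, SE 0.32, adjusted p = 8.3e-07, or 0.00076 with the day 14 opposite arteries as 1 sample). For both genes the grafts of the 2 days were closer to each other than the opposite arteries were.

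**Figure D5:**
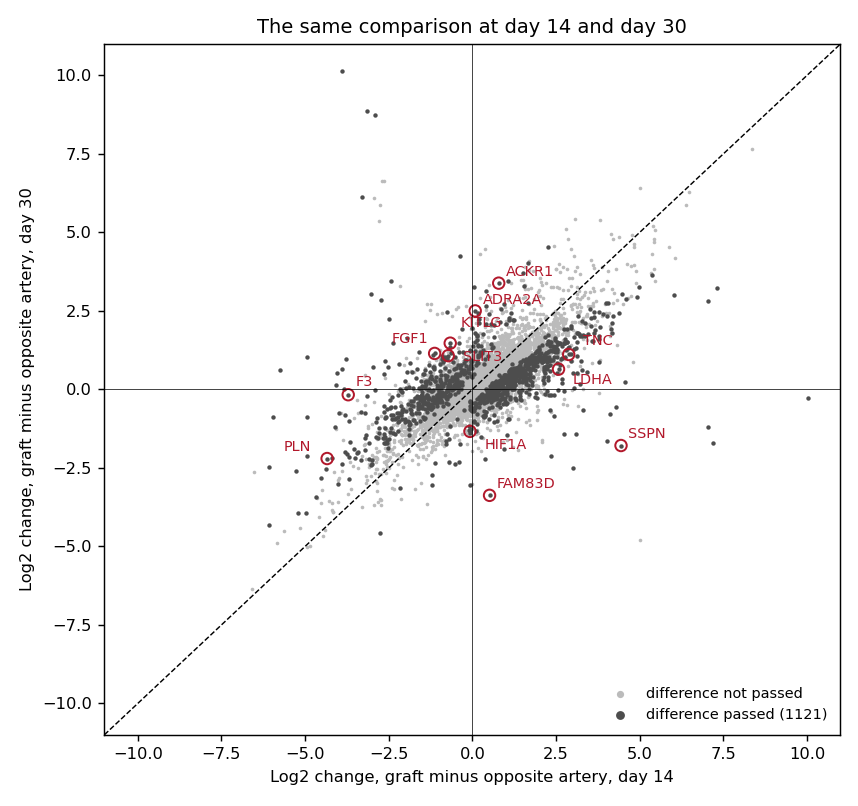
Log2 change of graft against opposite artery at day 14 (horizontal axis) and day 30 (vertical axis), 1 point per gene tested. Dark points are the 1121 genes in which the difference between the days passed, ringed points some of those named in the text that also passed with the day 14 opposite arteries as 1 sample, and the dashed line marks equal change. The 2 comparisons share no library.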

How the data were processed

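RNA from 20 rabbit vessel samples, 4 in each of 5 groups, was sequenced on a NovaSeq X Plus, per the labels' protocols. The authors deposited 1 table of FPKM values (fragments relative to transcript length and library depth) for 24964 transcript rows. The submitters' processing notes name fastp, HISAT2, StringTie, RSEM and DESeq2 without versions, and the genome build is not given in the sources used here. Depth per library is unknown, so no interval for counting error is given.

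FPKM were summed per gene ID, giving 23669 genes, 7195 of them at 0 in each of the 20. The 8657 genes tested reached 1 FPKM in 4 or more libraries. Symbols came from the table for 6825 of these and from NCBI gene numbers for 626, and 1206 had none. Values were taken as log2(FPKM + 1) and fitted with limma 3.58.1 in R 4.3.3 (lmFit and eBayes with a trend), 1 mean per group over all 20 libraries, two-sided, with Benjamini-Hochberg adjustment over 8657 genes and a threshold of 0.05. The difference between days is a contrast of the same fit. The fit was tested on simulated data in which 200 of the 8657 genes were changed. With 1 spread per gene over all groups, 9 of 171 calls were false (5.3%), near the threshold. With the spread of each gene drawn separately for each group, as observed, 59 of 222 calls were false (26.6%). Of the unchanged genes 0.7% were called. Adjusted p-values near 0.05 are therefore too small where groups differ in spread. In the data 37.6% of genes were called, far more than were changed in the simulation. The false share of 26.6% therefore cannot be carried over to the calls at day 30, whose false share was not estimated. Summaries used Python 3.11.15 with pandas 2.3.3, numpy 2.4.6 and matplotlib 3.10.9.

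The comparison, its 53 gene lists and cell type markers were chosen with earlier results of these data known, and describe rather than test. No list was tested as a set. Genes were named by a rule among those with a symbol: the 20 largest rises and 20 largest falls among genes that passed, averaging 5 FPKM or more in the higher group, without overlap or a library at 0; the 10 largest gains and losses in mean FPKM among genes that passed without overlap, mitochondrial genome genes kept out of both; up to 6 members of each list in each direction by adjusted p, or the 3 highest where none passed; the 10 largest differences between days in each direction; up to 10 genes at 0 in a whole group; and a fixed set of vessel, cell death and cell type marker genes. Of the 211 genes described 177 came from it, and the other 34 were chosen after their values were seen. TEK, CD163, C1QA, C1QB and TBX18 are named as cell type markers only and are not counted among the 211. Alternatives changed the pseudocount, the filter, the scaling, the libraries fitted, their weights and the replicate block. Some genes of the lists are not reported here by name. No sequence of a gene is shown.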

Additional observations from a re-analysis of the deposited data

Results flagged for a closer look

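For each of the 211 genes described, 1 library of a group was called distant where its gap to the nearest of the other 3 relative to the range of the group exceeded Dixon's critical value for groups of 4. This happened in 13 of 422 groups. No chance rate is set beside this count, because most genes were chosen by their values and the libraries may not be independent. Among grafts these were MYOCD in graft 3 (0.48 FPKM against 0.30 to 0.33 FPKM), UTRN in graft 3 (19.04 FPKM against 22.3 to 22.5 FPKM), ERBB3 in graft 2 (0.19 FPKM against 0.29 to 0.31 FPKM) and SLC40A1 in graft 2 (9.23 FPKM against 4.76 to 5.16 FPKM). Others were PARP14 in graft 1 (6.82 FPKM against 6.29 to 6.38 FPKM), TNFRSF12A in graft 2 (0.59 FPKM against 1.29 to 1.43 FPKM), ACKR1 in graft 2 (31.14 FPKM against 40.5 to 41.6 FPKM), MAPK4 in graft 2 (0.02 FPKM against 0.15 to 0.17 FPKM) and OLFM3 in graft 1 (0.52 FPKM against 0.03 to 0.08 FPKM). Among opposite arteries they were MMP13 in opposite artery 4 (0.06 FPKM against 0 in the other 3), CHI3L1 in opposite artery 3 (3.52 FPKM against 2.78 to 2.86 FPKM), SLC2A4 in opposite artery 1 (10.34 FPKM against 13.1 to 13.6 FPKM) and B2M in opposite artery 4 (57.69 FPKM against 74.1 to 76.0 FPKM).

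The change at day 30 differed from that at day 14 in 52 of the genes described, by the test of the difference itself (limma, adjusted p under 0.05 over 8657 genes). Values are the log2 change at day 30 minus that at day 14. In 18 genes the difference also passed with the day 14 opposite arteries counted as 1 sample. Of these the difference was positive in UTRN (1.52), P2RX1 (2.83), ADRA2A (2.42), F3 (3.54), ACKR1 (2.60), SLIT3 (1.80), KITLG (2.14), FGF1 (2.27) and PLN (2.14), and negative in MYOCD (-1.92), FMOD (-1.85), TNC (-1.77), RFC3 (-1.13), HIF1A (-1.26), ARPC1B (-1.40), LDHA (-1.93), SSPN (-6.23) and FAM83D (-3.89). Of the rest it was positive in KCNA5 (1.38), HSF1 (1.56), PCOLCE2 (1.28), P3H2 (0.89), EPYC (3.59), DCN (0.94), SPARCL1 (1.96), ITGA3 (1.00), VLDLR (0.96), SLC2A4 (0.94), KLF15 (1.72), JAG1 (1.23), ALDH1A3 (1.58), VIM (0.60), ZNRF3 (1.08), MEOX2 (2.03), LIMS2 (1.70), SUSD5 (1.04) and SPINK8 (1.28). It was negative in PIEZO2 (-0.51), SDF2L1 (-0.81), PLOD1 (-0.70), MMP2 (-0.90), ADAM12 (-1.71), ITGA5 (-0.86), CD14 (-1.71), B2M (-2.08), IRF8 (-1.0), CCL14 (-0.89), CXCL8 (-4.32), CXCR4 (-1.96), CCNB1 (-1.57), RRM2 (-1.67) and GPI (-0.90).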

How the results depend on the processing

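Of the 199 genes described that passed at day 30, none reversed and 189 passed in all 22 alternatives in which they could be fitted. CALD1, SDC4, THBS1, CXCL9, FGF2, BAX, BCL2, LDHA, CD84 and NR2F2 did not pass in 1 or more. Of the 12 described without a call, 8 passed in 1 or more. The count of 3253 genes at day 30 was 3167 with a pseudocount of 0.1, 2265 with a filter of 5 FPKM, 3802 with none, 2887 in a fit of the 8 libraries alone, 5082 with a weight per library and 2864 to 3166 with each library left out. The count of 1121 differences between days was 539 after scaling to TPM, 4257 with a weight per library, 722 without opposite artery 2 and graft 4, 93 with the day 14 opposite arteries as 1 sample, and 865 to 1405 with each library left out. The last 3 settings held fewer samples, yet the count rose to 1405 without day 14 graft 1. The cause of these moves was not tested. Fitted with a replicate block, 3124 genes passed at day 30 and 904 differences between days. The labels do not say whether equal replicate numbers mark vessels of 1 animal. Opposite artery and graft of the same number correlated at -0.044, -0.18, 0.063 and -0.042 in their deviations from the group means at day 30, and in 1 of 4 the best match was the same number. With 4 libraries in a group these values cannot show whether the numbers pair animals, and the main fit is unpaired. Of 106 list counts 39 stayed within 1.5 times of the reported one in every alternative. Without read counts the precision of low values is unknown, and a gene at 0 may be below what the authors' estimate could resolve.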

Other observations

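Several genes with large changes at day 30 belong to none of the gene lists. MAPK4, an atypical MAP kinase, stood at 20.7, 15.9, 12.9 and 22.8 FPKM in the opposite arteries and 0.15, 0.02, 0.16 and 0.17 FPKM in the grafts (log2 change -4.05 with SE 0.22, adjusted p = 3.2e-10). OLFM3, an olfactomedin, was at 9.82, 12.5, 13.5 and 17.6 FPKM in the opposite arteries and 0.52, 0.08, 0.08 and 0.03 FPKM in the grafts (log2 change -3.60 with SE 0.17, adjusted p = 9.6e-11). FIBIN, a small secreted protein, was at 448, 362, 332 and 532 FPKM in the opposite arteries and 27.0, 37.7, 27.4 and 32.7 FPKM in the grafts (log2 change -3.69 with SE 0.28, adjusted p = 1.7e-08). SUSD5 and SPINK8 fell from 83.1–108 and 11.1–34.1 to 2.55–9.51 and 0.04–0.77 FPKM. All 5 were lower in every graft than in any opposite artery. In unoperated vein MAPK4 averaged 1.44 ± 0.70 FPKM and FIBIN 20.2 ± 9.15 FPKM (SD, n = 4).

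Other genes outside the lists were among the largest rises or gains. CD84, a receptor of the SLAM family, stood at 0.05, 0.14, 0.26 and 0.66 FPKM in the opposite arteries and 2.25, 32.3, 19.2 and 19.6 FPKM in the grafts (log2 change 3.53 with SE 1.04, adjusted p = 0.012), and did not pass without opposite arteries 2 and 3 (log2 change 3.46, adjusted p = 0.065). LY86, which partners a Toll-like receptor relative on B cells and macrophages, was at 0.41, 0.79, 0.15 and 1.19 FPKM in the opposite arteries and 9.58, 34.3, 23.8 and 23.8 FPKM in the grafts (log2 change 3.78 with SE 0.41, adjusted p = 1.3e-06). Graft 1 was the lowest graft in both, as in GPNMB and CTSS. IGFBP7, a secreted protein of endothelium and stroma, was among the largest gains in FPKM, at 1248, 1163, 1108 and 1271 FPKM in the opposite arteries and 2144, 1780.4, 1823 and 1916 FPKM in the grafts (log2 change 0.68 with SE 0.16, adjusted p = 0.0021).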
